A study of Danio rerio with 4 samples.

Results

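The genes described here are the Notch receptors, their ligands, the enzymes and nuclear partners of the pathway, and the Hairy-related her, hes and hey genes that act under or beside it. They were chosen by gene symbol among the protein-coding rows of the deposited table, which found 51 of the 20390 rows. Of these, 49 reached a value of 10 in at least 2 of the 4 libraries and were tested, and her4.3 and hes2.2 did not. The 49 include jagn1a, jagn1b, mibp and mibp2, which share only the first letters of jag and mib and belong to other gene families, so 45 are Notch pathway or Hairy genes. The samples were whole zebrafish embryos of the transgenic line bns298. Its transgene has the heat-inducible hsp70l promoter, a STOP cassette between loxP sites, and npas4l joined through a GGGGGLSRS linker and a P2A peptide to mCherry, so that npas4l awaits removal of the cassette. The gene npas4l encodes a bHLH-PAS transcription factor needed for blood and endothelial development. There were 2 Cre-injected libraries, from embryos of this line given Cre at the one-cell stage, and 2 Uninjected libraries from the same line without Cre. All embryos of both groups carried the transgene and were kept at 28 °C until tailbud, given a heat shock of 1 h at 37 °C, and taken at the 6-somite stage. No group was injected without the transgene, so npas4l, Cre and the injection itself cannot be told apart. The hsp70l promoter is not restricted to a cell type, and the labels do not say how many embryos or clutches a library holds.

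Notch receptors are cell-surface proteins that bind Delta and Jagged ligands on neighbouring cells, are cut, and release an intracellular part that joins the DNA-binding protein Rbpj and the coactivator Mastermind to switch on target genes. Many of those targets are her, hes and hey genes, whose products are bHLH repressors. In the early zebrafish embryo the pathway sets apart neurons from neural progenitors, keeps neighbouring presomitic cells in step while the segmentation clock runs, and takes part in the choice between arterial and venous fate.

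Values are the deposited gene read counts, which appear to have been scaled by library and rounded to whole numbers; they are called normalised reads below. They sum to 8933474 and 9861419 in the Cre-injected libraries and to 9093935 and 9479827 in the Uninjected ones. Levels are not compared between genes, since transcript lengths were not used here. The gene npas4l stood at 710 and 808 normalised reads in Cre-injected embryos, against 370 and 279 in Uninjected embryos (adjusted p = 0.00051 by limma). Its row does not tell reads of the transgene from those of the embryo's own npas4l. Fold changes are Cre-injected over Uninjected on the log2(value + 1) scale, which understates changes of low genes, with a standard error (SE) and a Benjamini-Hochberg adjusted p from limma across 16754 genes. The threshold was an adjusted p under 0.05. Intervals are 95% intervals of the single gene from the same fit, not adjusted for the number of genes. Nothing in the labels ties replicates to different clutches, and the p-values thus reflect the spread among these 4 libraries, which may be technical. In the fit the spread of each gene was drawn towards that of genes of like level. In whole embryos, fewer cells of a type and less RNA per cell cannot be told apart.

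The receptor gene notch1a and the clock-associated gene her11 were higher in Cre-injected embryos, and the feedback gene nrarpb and the Hairy-related gene her8a were lower. These were the 4 members past the threshold, 8.16% of the 49 tested, while 12.5% of all tested genes passed it. The share of members past the threshold was thus no higher than that of genes in general. By direction, 2 members were higher and 2 lower, against 6.35% and 6.19% of all tested genes. The median log2 fold change of the members was -0.14, and that of all tested genes was 0.00. In 32 members the Cre-injected and Uninjected libraries did not overlap, 9 with both Cre-injected values above and 23 with both below. That is 65.3% of the members, against 56.7% of all tested genes. By direction it is 18.4% above and 46.9% below among members, and 28.0% and 28.8% among all tested genes. None of the 4 calls held with an Uninjected library left out, where fewer of all tested genes passed as well. The 4 changes kept their sign in those fits, which are given below. This was bound to happen, since the groups do not overlap in these genes.

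**Figure D1:**
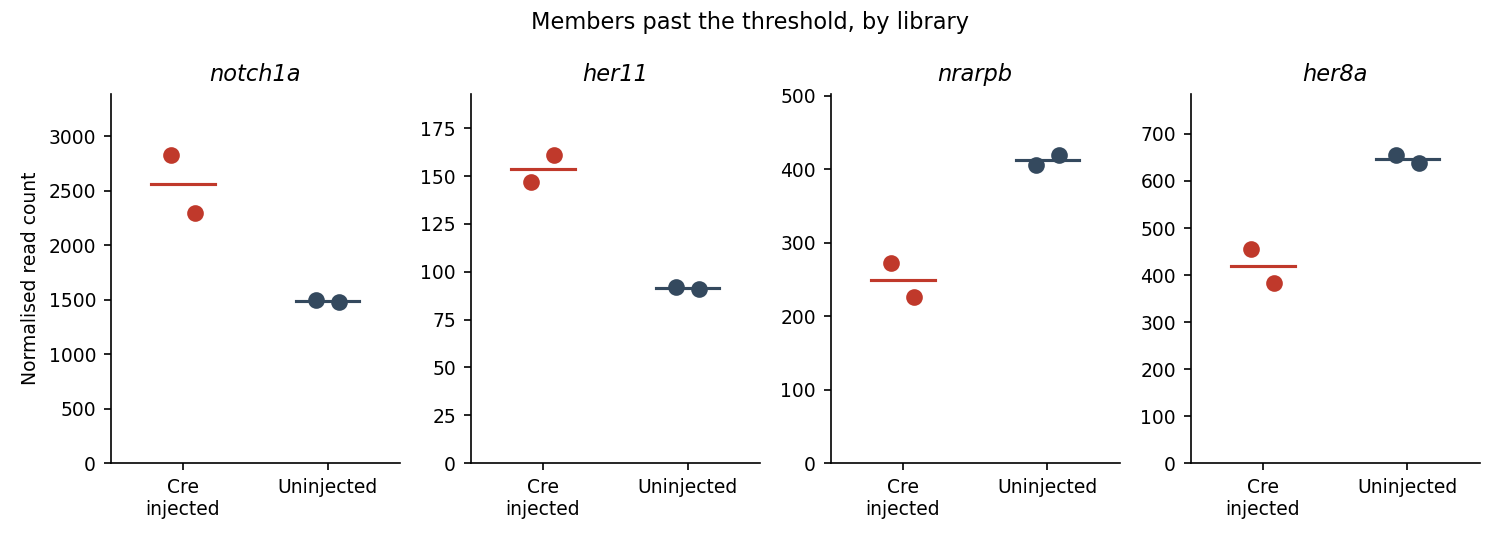
Normalised read counts of the 4 members past the threshold in each library, with Cre-injected libraries on the left, Uninjected libraries on the right and a bar at each group's mean (n = 2 each). The axes start at 0. For notch1a and her11 both Cre-injected libraries lie above both Uninjected ones, and for nrarpb and her8a both lie below.

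Among the receptors, notch1a rose. The gene (ENSDARG00000103554; chromosome 21, 4766244 to 4849056, GRCz11) had 2825 and 2291 normalised reads in Cre-injected embryos, against 1499 and 1476 in Uninjected embryos. The Uninjected libraries lay close together, and the Cre-injected ones were both above them and further from each other. The log2 fold change was 0.77 ± 0.12 (SE), a fold of 1.71 (adjusted p = 0.00189 by limma). The other 3 tested receptors did not pass the threshold. For notch2 the values were 1221 and 982 in Cre-injected embryos, against 761 and 874 in Uninjected embryos, with a log2 fold change of 0.42 (adjusted p = 0.0613 by limma). For notch3, the receptor gene best known from neural progenitors and the cells around vessels, they were 4549 and 3415 in Cre-injected embryos, against 2762 and 3211 in Uninjected embryos. Its log2 fold change was 0.40 (adjusted p = 0.0798 by limma). In both genes the Cre-injected libraries lay above the Uninjected ones without overlap, as in 28.0% of all tested genes. Cre-injected replicate 1 was the highest in both. For notch1b, the other zebrafish copy of the first Notch gene, the values were 1505 and 1296 in Cre-injected embryos, against 1368 and 1335 in Uninjected embryos, and the groups overlapped. Its interval ran from -0.21 to 0.30 on the log2 scale, below that of notch1a, which ran from 0.51 to 1.04. The difference between the copies was not tested.

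No ligand gene outside the clock passed the threshold, of 7 tested, while 12.5% of all tested genes passed it. At an unadjusted p under 0.05 by limma there were 3, which were dll4, jag1b and dlb, against 28.4% of all tested genes. The largest change among them was that of dll4, the Delta ligand gene of arterial endothelium, with 35 and 45 normalised reads in Cre-injected embryos, against 11 and 27 in Uninjected embryos. The groups did not overlap, yet the Uninjected libraries differed from each other by more than the Cre-injected ones did. Its log2 fold change was 1.15 ± 0.45 (SE), with an interval of 0.18 to 2.12 (adjusted p = 0.113 by limma). Among the fits with 1 library left out, the log2 fold change of dll4 was 0.54 without Uninjected replicate 1 and 1.76 without Uninjected replicate 2. The Jagged gene jag1b had 320 and 269 in Cre-injected embryos, against 242 and 209 in Uninjected embryos (log2 fold change 0.38, adjusted p = 0.152 by limma).

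The Delta genes of the nervous system had values on the other side. For dlb, they were 205 and 261 in Cre-injected embryos, against 330 and 291 in Uninjected embryos (log2 fold change -0.42, adjusted p = 0.126 by limma). For dla, they were 440 and 421 in Cre-injected embryos, against 503 and 532 in Uninjected embryos (log2 fold change -0.26, adjusted p = 0.207 by limma). In both genes the Cre-injected libraries lay below the Uninjected ones, as in 28.8% of all tested genes. The row of dla is overlapped over 8650 bases by an antisense gene, listed with 7 and 4 reads in Cre-injected and 3 and 7 in Uninjected libraries. Of the remaining Jagged genes, jag2a stood at 68 and 48 in Cre-injected embryos, against 85 and 69 in Uninjected embryos (adjusted p = 0.345 by limma). The values of jag1a were 360 and 264 in Cre-injected embryos, against 357 and 322 in Uninjected embryos (adjusted p = 0.642 by limma). Those of jag2b were 1055 and 728 in Cre-injected embryos, against 856 and 891 in Uninjected embryos (adjusted p = 0.989 by limma). In jag1a and jag2b the groups overlapped, and the Cre-injected libraries were further apart than the Uninjected ones.

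The genes that act on ligands and receptors in the sending and receiving cell had smaller differences. None of 5 passed the threshold, against 12.5% of all tested genes. None reached an unadjusted p under 0.05 by limma, against 28.4% of all tested genes. With 5 genes such counts say little. The ubiquitin ligase gene mib1, whose product lets Delta be taken up by the sending cell, had 1457 and 1299 in Cre-injected embryos, against 1167 and 1275 in Uninjected embryos (interval -0.08 to 0.43). The fringe genes encode enzymes that add sugars to Notch and change which ligands it binds. Their values were 1031 and 809 in Cre-injected embryos, against 863 and 956 in Uninjected embryos, for lfng (interval -0.29 to 0.31). For rfng they were 278 and 293 in Cre-injected embryos, against 316 and 311 in Uninjected embryos (interval -0.45 to 0.18). The gene for Numb, an endocytic adaptor that limits Notch, had 194 and 211 in Cre-injected embryos, against 202 and 185 in Uninjected embryos (interval -0.30 to 0.43). Its relative numbl had 65 and 70 in Cre-injected embryos, against 72 and 90 in Uninjected embryos (interval -0.78 to 0.28). These intervals leave room for changes in either direction in each of the 5 genes.

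Of the nuclear genes, nrarpb fell. Nrarp proteins are ankyrin-repeat proteins that are induced by Notch and dampen it. The gene (ENSDARG00000018958; chromosome 5, 66025336 to 66028729) had 272 and 226 normalised reads in Cre-injected embryos, against 406 and 419 in Uninjected embryos. Both Cre-injected libraries were below both Uninjected ones. This was a log2 fold change of -0.73 ± 0.15 (SE) and a fold of 0.602 (adjusted p = 0.00891 by limma). Its paralog nrarpa had 2430 and 1943 in Cre-injected embryos, against 1881 and 1984 in Uninjected embryos, and the groups overlapped. The log2 fold change of nrarpa was 0.17, with an interval of -0.10 to 0.44 (adjusted p = 0.405 by limma). The interval of nrarpb was -1.06 to -0.40. As for the notch1 copies, the difference between the paralogs was not tested.

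The 4 genes of the transcription complex did not pass. The Rbpj gene rbpja had 687 and 776 in Cre-injected embryos, against 703 and 673 in Uninjected embryos (interval -0.18 to 0.36). The second copy, rbpjb, had 110 and 80 in Cre-injected embryos, against 104 and 126 in Uninjected embryos (adjusted p = 0.457 by limma). Of the Mastermind coactivator genes, maml3 had 211 and 195 in Cre-injected embryos, against 139 and 154 in Uninjected embryos. These groups did not overlap, and the log2 fold change was 0.47 ± 0.18 (SE; adjusted p = 0.103 by limma). For maml1 the values were 458 and 349 in Cre-injected embryos, against 422 and 419 in Uninjected embryos (adjusted p = 0.798 by limma).

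The hey genes encode repressors that act downstream of Notch in heart and vessels, and hey2 is the gridlock gene of artery formation. For hey1 the values were 971 and 770 in Cre-injected embryos, against 1122 and 1158 in Uninjected embryos (log2 fold change -0.40, adjusted p = 0.0683 by limma). For hey2 they were 95 and 96 in Cre-injected embryos, against 143 and 125 in Uninjected embryos (log2 fold change -0.48, adjusted p = 0.142 by limma). In both genes the Cre-injected libraries lay below the Uninjected ones without overlap, as in 28.8% of all tested genes. Neither passed the threshold. Without Cre-injected replicate 1, hey1 passed it (log2 fold change -0.57), whereas leaving out Cre-injected replicate 2 gave a log2 fold change of -0.23 (adjusted p = 0.104 by limma).

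**Figure D2:**
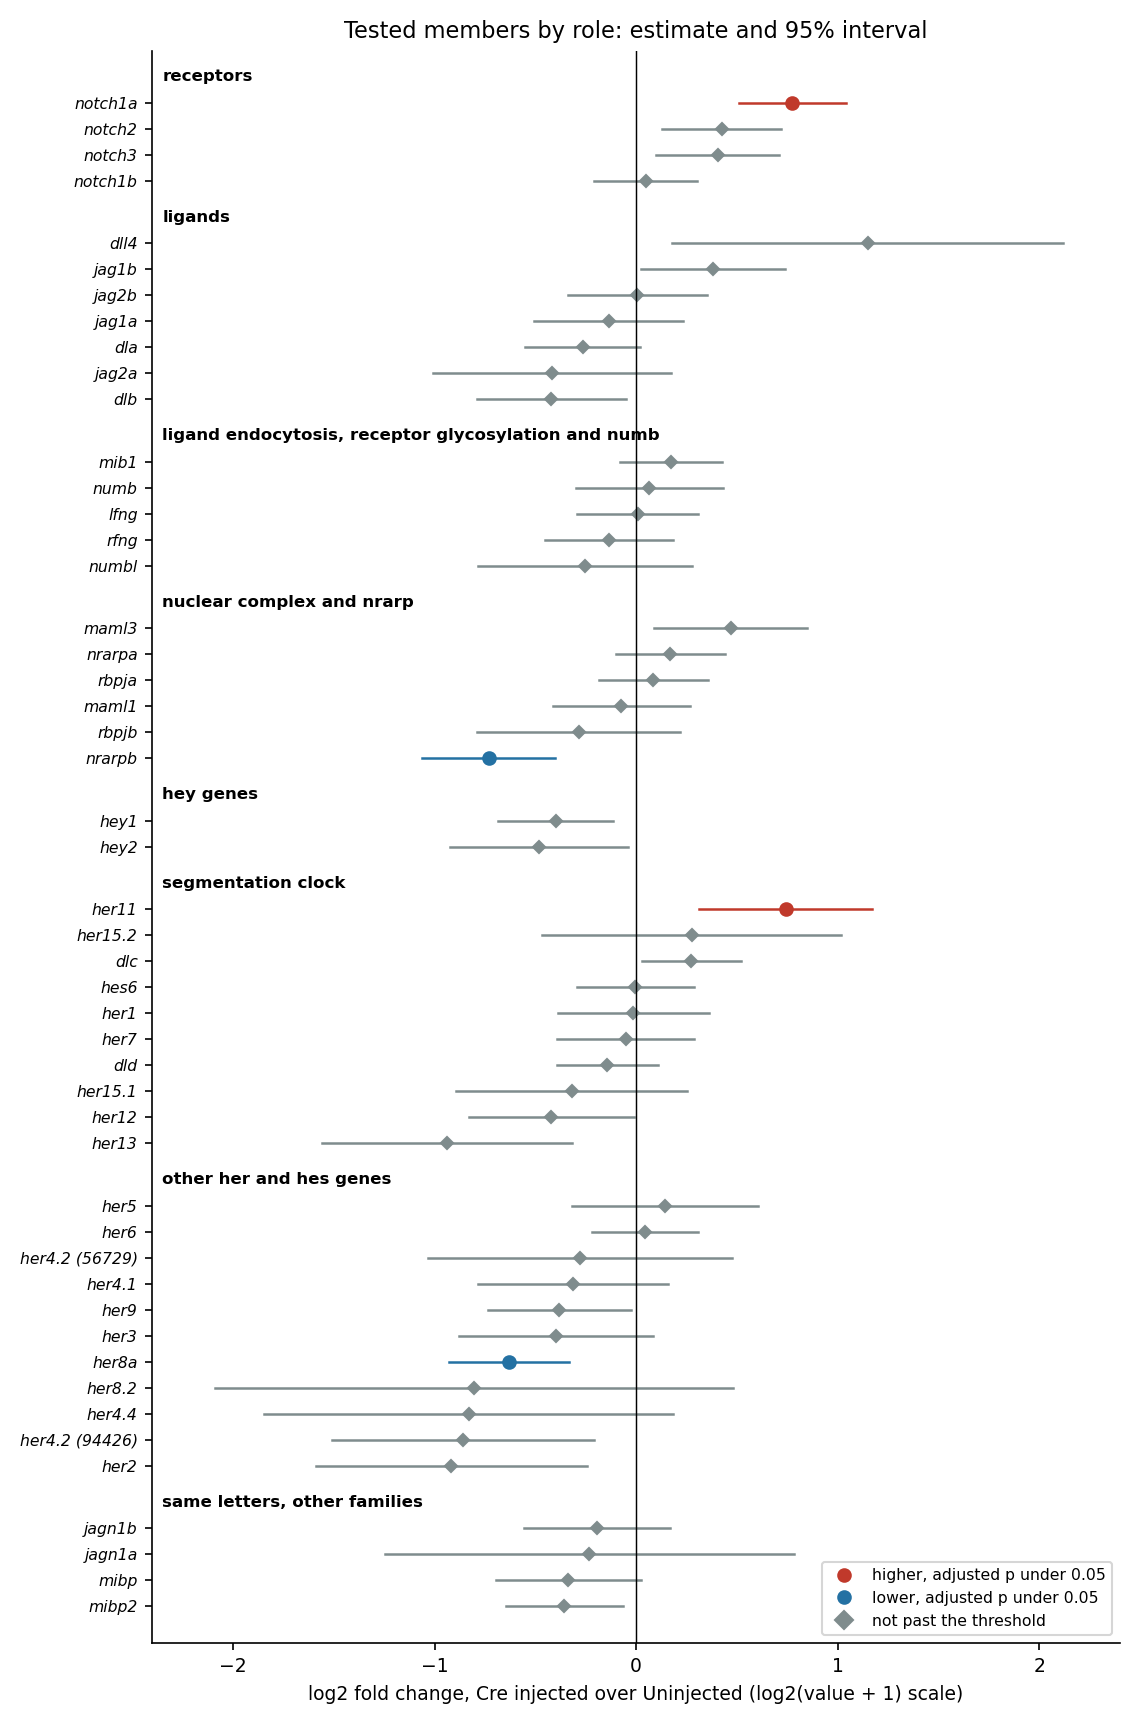
Log2 fold change of Cre-injected over Uninjected embryos for the 49 tested members by role, with the single-gene 95% interval of the limma fit. Circles mark the 4 members past the threshold, of which notch1a and her11 lie right of 0 and nrarpb and her8a left of it. Grey diamonds mark the other 45, and both her4.2 rows carry the last digits of their identifiers.

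The segmentation clock was considered apart. It is a set of bHLH repressor and Delta genes that time the formation of somites. Transcripts of many of them oscillate in presomitic cells, and for those a whole-embryo value sums over phases of the cycle. Of its 10 genes, her11 was higher, none was lower, and 9 did not pass the threshold, which 12.5% of all tested genes passed. Their median log2 fold change was -0.03, against 0.00 for all tested genes. The groups did not overlap in 6 of the 10, a share near the 56.7% of all tested genes, with 2 above and 4 below.

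The gene her11 (ENSDARG00000002707; chromosome 14, 30538482 to 30540967) is active in presomitic mesoderm and, under its other name him, at the boundary between midbrain and hindbrain. It had 147 and 161 normalised reads in Cre-injected embryos, against 92 and 91 in Uninjected embryos. Replicates of each group lay close together, and the groups were apart. On the log2 scale the change was 0.74 ± 0.20 (SE), a fold of 1.67 (adjusted p = 0.0294 by limma).

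The central oscillator genes her1 and her7, which repress each other's and their own transcription, showed small differences. For her1 the values were 196 and 229 in Cre-injected embryos, against 198 and 231 in Uninjected embryos (interval -0.39 to 0.36, adjusted p = 0.969 by limma). In both groups replicate 2 was the higher. For her7 they were 227 and 232 in Cre-injected embryos, against 235 and 241 in Uninjected embryos (interval -0.39 to 0.29, adjusted p = 0.859 by limma). Their dimer partner hes6, had 413 and 429 in Cre-injected embryos, against 425 and 419 in Uninjected embryos (interval -0.29 to 0.29, adjusted p = 0.991 by limma). The row of hes6 overlaps itm2cb on the other strand over 10525 bases, and the sources used here do not say whether counting used strand. For her7 the Cre-injected values lay just below the Uninjected ones, by less than the spread seen in her1.

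The Delta genes of the clock are dlc, which oscillates, and dld, which acts with it in somites and in the nervous system. For dlc the values were 1645 and 1696 in Cre-injected embryos, against 1303 and 1466 in Uninjected embryos (log2 fold change 0.27, interval 0.03 to 0.52, adjusted p = 0.135 by limma). For dld they were 913 and 882 in Cre-injected embryos, against 1017 and 964 in Uninjected embryos (log2 fold change -0.14, interval -0.39 to 0.11, adjusted p = 0.451 by limma). The libraries did not overlap in either gene, with the Cre-injected ones above for dlc and below for dld.

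The gene her13 was just short of the threshold. Its values were 36 and 58 in Cre-injected embryos, against 85 and 92 in Uninjected embryos, so both Cre-injected libraries were lower and replicate 1 was the lowest. The log2 fold change was -0.94 ± 0.28 (SE), with an interval of -1.56 to -0.32 (adjusted p = 0.051 by limma). It passed in 6 of the 11 other settings that kept all libraries, where its adjusted p ranged from 0.0302 to 0.0744 by limma. Leaving out Cre-injected replicate 2 gave her13 a log2 fold change of -1.27, and leaving out Cre-injected replicate 1 gave it -0.60. For her12 the values were 124 and 128 in Cre-injected embryos, against 155 and 184 in Uninjected embryos (log2 fold change -0.42, adjusted p = 0.166 by limma). The her15 copies encode near relatives of each other and are used in both presomitic and neural tissue. For her15.1 the values were 106 and 76 in Cre-injected embryos, against 90 and 140 in Uninjected embryos. For her15.2 they were 41 and 43 in Cre-injected embryos, against 27 and 44 in Uninjected embryos. Groups overlapped in both, and reads of the copies may be split between them in a way that the table does not show.

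**Figure D3:**
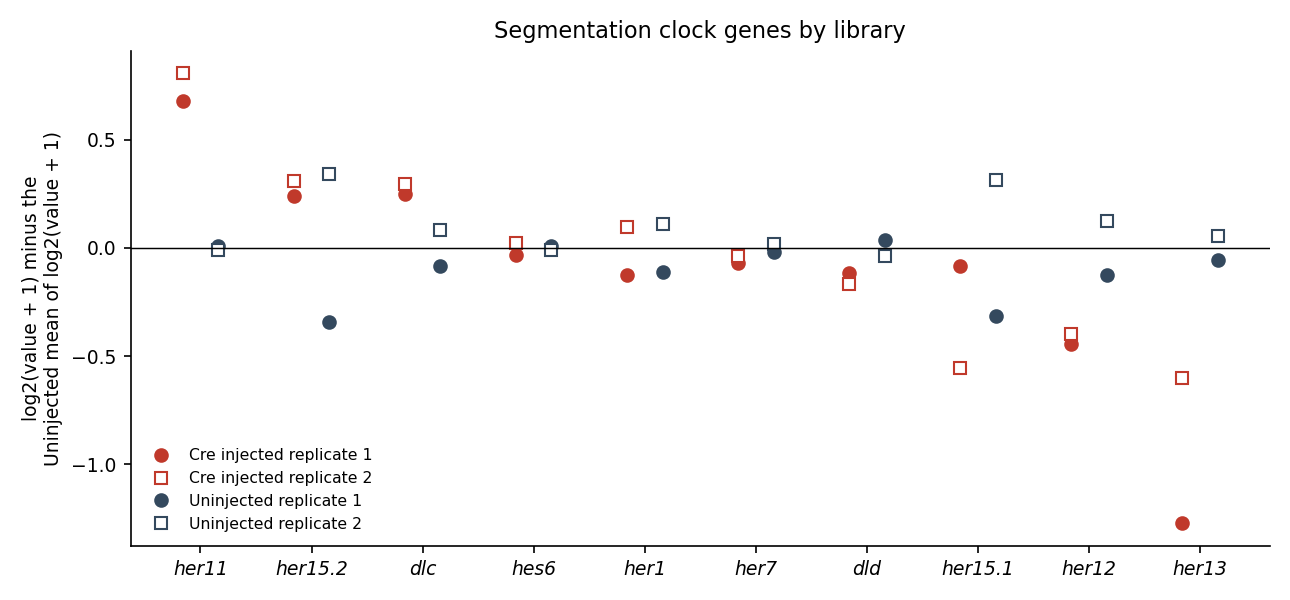
The 10 segmentation clock genes in each library, as log2(value + 1) minus the mean of the Uninjected libraries, with Cre-injected libraries left of Uninjected ones for each gene. For her11 both Cre-injected libraries lie well above the Uninjected ones, for her13 and her12 both lie below, and for her1 and hes6 the groups overlap.

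Other presomitic genes give the setting of the clock genes. They were listed with the members, and of 17 tested 1 was higher and 2 were lower, 17.6% in all beside the 12.5% of all tested genes. The bHLH gene msgn1, which drives maturation of presomitic cells, had 1462 and 1240 in Cre-injected embryos, against 931 and 997 in Uninjected embryos (log2 fold change 0.48, adjusted p = 0.0233 by limma). It was no longer past the threshold after rescaling to equal library totals (adjusted p = 0.0549 by limma). The gene mespbb, which marks the front part of the next somite to form and is regulated by the clock, had 37 and 35 in Cre-injected embryos, against 83 and 66 in Uninjected embryos (log2 fold change -1.02, adjusted p = 0.0348 by limma). Its relatives mespba, mespaa and mespab did not pass, and their groups overlapped (adjusted p = 0.752, 0.79 and 0.853 by limma). The retinoic acid synthesis gene aldh1a2 of the somites had 394 and 407 in Cre-injected embryos, against 660 and 631 in Uninjected embryos (log2 fold change -0.69, adjusted p = 0.00493 by limma). The T-box gene tbx6, which sets the somite border, had 1356 and 1289 in Cre-injected embryos, against 1324 and 1222 in Uninjected embryos (adjusted p = 0.785 by limma). None of the 3 calls in this list held without either Uninjected library, where fewer of all tested genes passed too.

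Most of the remaining her genes work in the neural plate, where some keep whole regions free of neurons and others respond to Notch in progenitors. Of the 11 tested, her8a was lower, none was higher and 10 did not pass the threshold. Among all tested genes 12.5% passed it, with 6.19% lower. The median log2 fold change of the 11 was -0.40, against 0.00 for all tested genes. In 8 of the 11 both Cre-injected libraries lay below both Uninjected ones, and in none above. Only 7 of the 11 are genes other than the tandem her4 copies, between which reads may be split. The share that lies below is 28.8% over all tested genes.

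The neural repressor gene her8a (ENSDARG00000016363; chromosome 7, 26429941 to 26436480) had 455 and 383 normalised reads in Cre-injected embryos, against 655 and 638 in Uninjected embryos. The Uninjected libraries were close together and both Cre-injected ones were lower. The log2 fold change was -0.63 ± 0.14 (SE), a fold of 0.646 (adjusted p = 0.0109 by limma). Larger falls than that of her8a, none past the threshold, were seen in genes with fewer reads. These were her2, her8.2, her4.4 and the her4.2 row ENSDARG00000094426. For her2 the values were 38 and 71 in Cre-injected embryos, against 86 and 114 in Uninjected embryos (log2 fold change -0.92, adjusted p = 0.0733 by limma). Its size depended on the Cre-injected library kept: the log2 fold change was -1.36 without Cre-injected replicate 2, where it passed, and -0.47 without Cre-injected replicate 1 (adjusted p = 0.221 by limma). For her8.2 they were 8 and 6 in Cre-injected embryos, against 11 and 15 in Uninjected embryos (interval -2.09 to 0.48).

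The her4 genes are tandem copies that respond to Notch in neural progenitors, and reads may be split between such copies. In the order of their place on chromosome 23, her4.1 had 82 and 101 in Cre-injected embryos, against 119 and 108 in Uninjected embryos. The row ENSDARG00000094426, listed as her4.2, had 36 and 29 in Cre-injected embryos, against 58 and 61 in Uninjected embryos (log2 fold change -0.86, adjusted p = 0.0809 by limma). It overlaps her4.3 on the same strand over 1872 bases, and her4.3 itself stood at 4 and 0 in Cre-injected and 6 and 1 in Uninjected libraries. For her4.4 the values were 31 and 15 in Cre-injected embryos, against 26 and 59 in Uninjected embryos, with overlapping groups. The other row listed as her4.2, ENSDARG00000056729, had 28 and 26 in Cre-injected embryos, against 31 and 35 in Uninjected embryos. A sum over the 5 rows does not depend on how the reads counted in them were split. Reads counted for none of the copies would be missing from it. Its values were 181 and 171 in Cre-injected embryos, against 240 and 264 in Uninjected embryos. The sum did not overlap between groups. Fitted as 1 gene, a step added after the single values were seen, it had a log2 fold change of -0.51 ± 0.16 (SE; adjusted p = 0.0601 by limma).

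The region-setting repressor genes her3, her5, her6 and her9 did not pass. For her9 the values were 598 and 425 in Cre-injected embryos, against 699 and 617 in Uninjected embryos (log2 fold change -0.38, adjusted p = 0.15 by limma). For her3 they were 82 and 89 in Cre-injected embryos, against 101 and 126 in Uninjected embryos (adjusted p = 0.261 by limma). The midbrain-hindbrain gene her5 had 126 and 102 in Cre-injected embryos, against 104 and 101 in Uninjected embryos (interval -0.32 to 0.60). For her6 the values were 949 and 875 in Cre-injected embryos, against 837 and 933 in Uninjected embryos (interval -0.22 to 0.31). Cre-injected values were below Uninjected ones in her9 and her3, and the groups overlapped in her5 and her6. The untested hes2.2 had 7 and 0 in Cre-injected embryos, against 5 and 3 in Uninjected embryos.

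Some markers of the tissues that use these genes passed the threshold too, which 12.5% of all tested genes passed. The 10 rows of neural plate and early neuron markers summed to 5174 and 5058 normalised reads in Cre-injected embryos, against 6586 and 6587 in Uninjected embryos. Of these rows 4 were lower (sox3, sox19a, neurog1 and ascl1a) and none higher, where 6.19% of all tested genes were lower. The rest did not pass. Their log2 fold changes were -0.41 for sox19b, -0.29 for elavl3, -0.22 for neurod4, -0.18 for sox2, and 0.18 and -0.19 for the ascl1b rows. The genes elavl3 and sox19a made up much of this sum. The 4 presomitic markers summed to 4502 and 4061 in Cre-injected embryos, against 3763 and 3536 in Uninjected embryos, and msgn1 was the 1 higher. Of the other presomitic markers, tbx6 and tbx16 had log2 fold changes of 0.06 and 0.03, and tbxta one of 0.30 (adjusted p = 0.152 by limma). The 7 early blood and vessel markers summed to 2596 and 2508 in Cre-injected embryos, against 1754 and 1774 in Uninjected embryos, with etv2, lmo2 and kdr higher. The other 4 did not pass: tal1 had a log2 fold change of 0.47, while those of cdh5 (-0.59), fli1a (-0.19) and kdrl (-0.18) were below 0. The gene kdr made up much of the sum, with 1086 and 783 in Cre-injected embryos, against 571 and 632 in Uninjected embryos. No marker was at 0 in any library. Whether these marker differences have a part in the values of the Notch and Hairy genes was not tested.

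With all libraries kept, the share of all genes past the threshold was 9.91% without robust shrinkage, 13.4% with the replicate number as a block and 5.14% at an adjusted p under 0.01, which left notch1a and nrarpb among the members. With a library left out, the calls of the 4 members moved together and did not hold in every fit. Leaving out a library leaves 1 in its group, which is then assumed to vary like the other group. Without either Cre-injected library all 4 stayed past the threshold, and without either Uninjected library none did. The adjusted p of notch1a was then 0.0591 or 0.0721, that of nrarpb 0.105 or 0.131, that of her8a 0.166 or 0.138 and that of her11 0.174 or 0.18 by limma, in the order without Uninjected replicate 1 and without replicate 2. Fold changes kept their sign throughout, as they had to, since the groups do not overlap in these 4 genes. The log2 fold change over the 4 fits ranged from 0.62 to 0.92 for notch1a, from 0.68 to 0.81 for her11, from -0.87 to -0.60 for nrarpb and from -0.75 to -0.51 for her8a. The count of members past the threshold was 10 without Cre-injected replicate 1 and 12 without replicate 2, beside 23.5% and 19.4% of all tested genes. Without Uninjected replicate 1 or 2 it was 0, beside 2.97% and 2.61% of all tested genes.

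**Figure D4:**
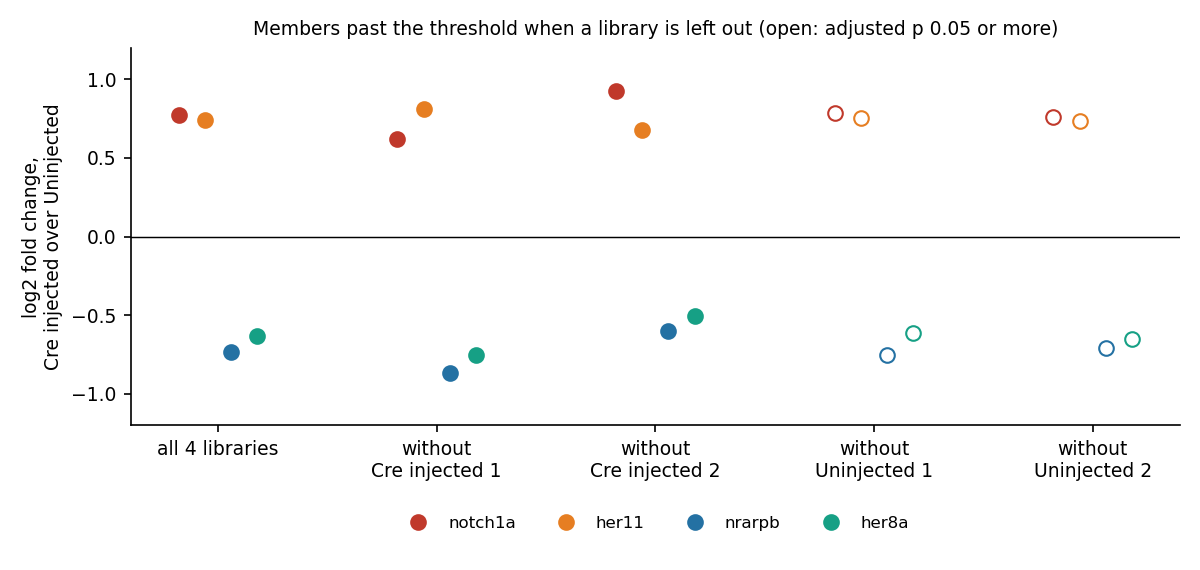
Log2 fold change of Cre-injected over Uninjected embryos for notch1a, her11, nrarpb and her8a with all 4 libraries and with each library left out. Filled points passed an adjusted p of 0.05 and open points did not. The estimates stay on their side of 0 in every fit, as they must where the groups do not overlap. The open points are those without an Uninjected library.

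Other genes of the pathway, which cut the receptor, modify it or act with it in the nucleus, were taken from a separate list. Of 40 found, 39 were tested, and 5 were higher, 2 lower and 32 not past the threshold, 17.9% in all beside the 12.5% of all tested genes. The median log2 fold change was 0.03. The gene for Fbxw7, a ubiquitin ligase subunit that marks the Notch intracellular part for breakdown, had 893 and 905 in Cre-injected embryos, against 586 and 456 in Uninjected embryos (log2 fold change 0.80, adjusted p = 0.00359 by limma). The acetyltransferase gene ep300a, whose product joins Mastermind at target genes, had 1484 and 1430 in Cre-injected embryos, against 972 and 912 in Uninjected embryos (log2 fold change 0.63, adjusted p = 0.00381 by limma). Replicates of ep300a lay close together in both groups. Another acetyltransferase gene, kat2b, had 74 and 90 in Cre-injected embryos, against 39 and 41 in Uninjected embryos (log2 fold change 1.01, adjusted p = 0.0289 by limma). For ep300a, kat2b and fbxw7 the groups did not overlap, as in 56.7% of all tested genes. The paralogs of the acetyltransferase genes did not pass. The log2 fold change was 0.32 for ep300b (adjusted p = 0.155 by limma) and 0.03 for kat2a (adjusted p = 0.934 by limma).

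Corepressor genes went both ways. The gene spen, whose product holds Rbpj targets silent, had 1133 and 1028 in Cre-injected embryos, against 752 and 721 in Uninjected embryos (log2 fold change 0.55, adjusted p = 0.0103 by limma). The corepressor gene ncor1 had 2179 and 1833 in Cre-injected embryos, against 1516 and 1522 in Uninjected embryos (log2 fold change 0.40, adjusted p = 0.0461 by limma). This call ended under each of the 3 other scalings (adjusted p = 0.0551 to 0.106 by limma) and without robust shrinkage (0.0678). For the corepressor gene ctbp1 the values were 2939 and 2558 in Cre-injected embryos, against 3677 and 3564 in Uninjected embryos (log2 fold change -0.40, adjusted p = 0.0353 by limma). Its call ended after rescaling to equal library totals (adjusted p = 0.0609 by limma) and without robust shrinkage (0.0552). The gene for Poglut1, an enzyme that adds glucose to Notch, had 51 and 41 in Cre-injected embryos, against 113 and 93 in Uninjected embryos (log2 fold change -1.15, adjusted p = 0.0125 by limma). Without Uninjected replicate 2 none of the 7 calls held, and without Uninjected replicate 1 only that of fbxw7 did. Without Cre-injected replicate 2 that of kat2b was lost (adjusted p = 0.0833 by limma).

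The ADAM protease and furin genes, whose products cut the receptor, did not pass. Their values lay on both sides without overlap between groups, as did those of 56.7% of all tested genes. For adam10a they were 2301 and 2220 in Cre-injected embryos, against 2529 and 2389 in Uninjected embryos (interval -0.35 to 0.11), and adam10b was also below (log2 fold change -0.48). For adam17a they were 1102 and 1104 in Cre-injected embryos, against 900 and 902 in Uninjected embryos (log2 fold change 0.29, adjusted p = 0.111 by limma), and adam17b was also above (log2 fold change 0.40). The furin genes differed in sign, with a log2 fold change of 0.28 for furina and -0.76 for furinb (adjusted p = 0.093 by limma).

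**Figure D5:**
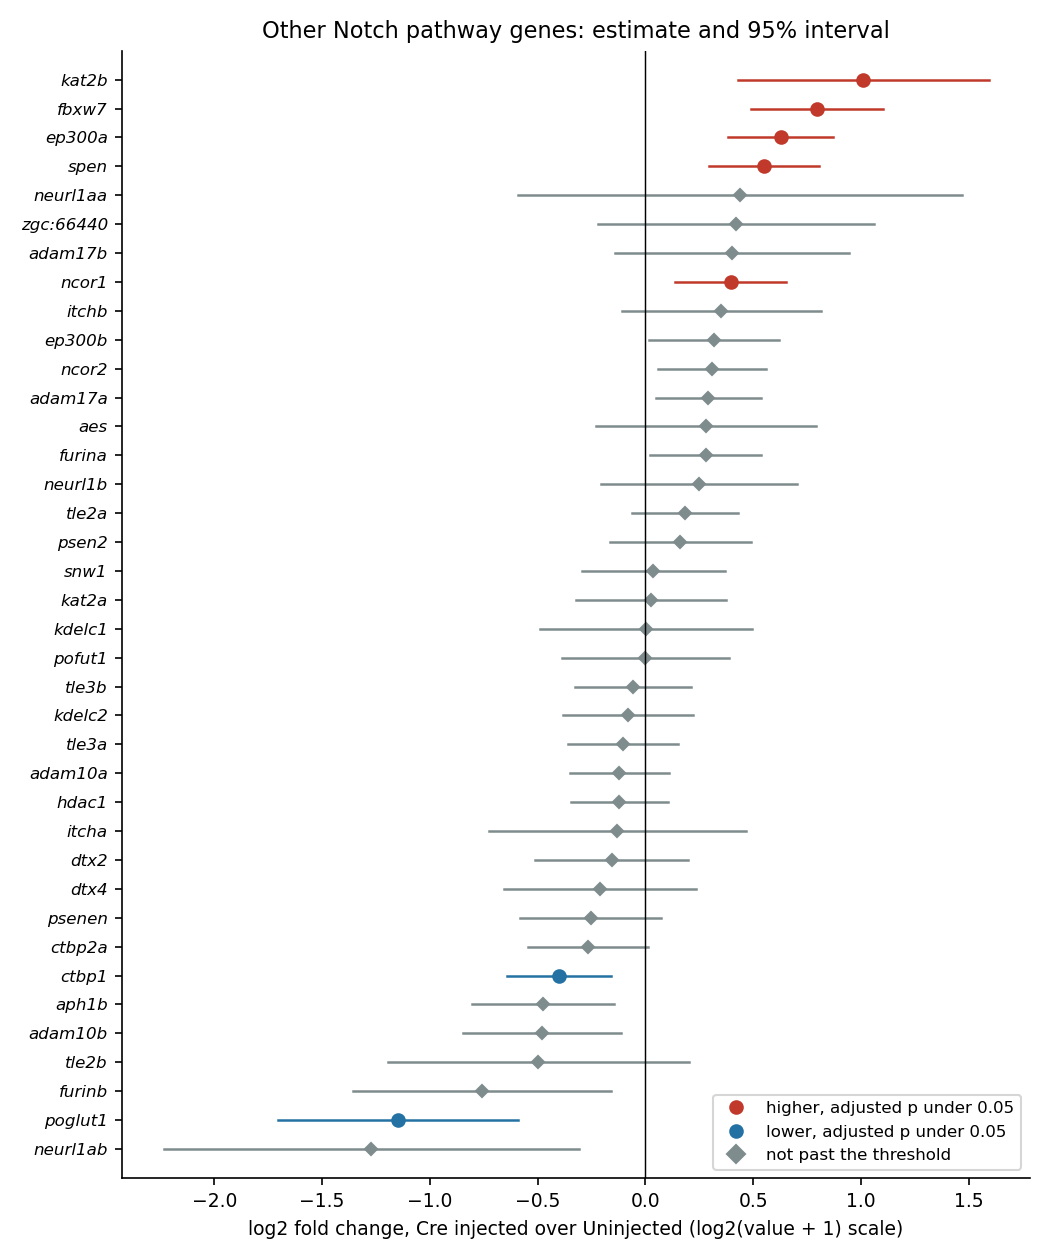
Log2 fold change of Cre-injected over Uninjected embryos for tested pathway genes outside the Notch and Hairy families, with the single-gene 95% interval of the limma fit. Circles mark the 7 past the threshold: kat2b, fbxw7, ep300a, spen and ncor1 lie right of 0, and ctbp1 and poglut1 left of it.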

How the data were processed

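Total RNA from whole embryos (10 ng) was made into stranded libraries, read from 1 end over 75 bases, per the labels' protocols. Per the submitters' processing notes the tools were DESeq2 1.14.1, featureCounts 1.6.0, STAR 2.6.0c, Trimmomatic 0.36 and FastQC 0.11.8, and the build GRCz11, with no roles given. The authors deposited a whole-number score per gene and library. From skipped and overfilled whole numbers in each column it is read here as read counts divided by a size factor and rounded, which no header states, so no count model was used. Samples were grouped by title. limma 3.58.1 (R 4.3.3) was run on log2(value + 1), with trend and robust shrinkage and no block, for genes of 10 or more in at least 2 libraries. The code was first run on simulated counts, with a single spread for all genes and larger changes than most given here. That run cannot show how well changes of the present size are found. The depth limits genes of few reads most.

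The members, roles and lists were chosen with earlier results of these data known. Full values were due for members past the threshold, clock genes and the 2 largest changes per role; other members, and untested or overlapping genes, were named after their values were seen. List symbols were matched by symbol, alias and Ensembl identifier. The listed ncstn, dtx1, dtx4a and kdm5a were not analysed here, and 1 tested gene of that list is counted but not reported by name. Alternatives were 3 scalings, 2 filters, 2 pseudocounts, non-robust shrinkage, a stricter threshold, leaving out each library in turn and a replicate block. Figures were drawn with matplotlib 3.10.9.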

Additional observations from a re-analysis of the deposited data

How the results depend on the processing

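The 4 member calls held under every scaling, filter and pseudocount tried, with non-robust shrinkage and with the replicate block. An adjusted p under 0.01 left 2 members (notch1a and nrarpb), 861 genes in all, 2 other pathway genes, 1 clock partner, 0 clock genes and 0 other her and hes genes. Clock genes past the threshold were 2, her13 being added, after rescaling to equal totals, with or without mitochondrial and structural RNA genes, with no filter, with a filter of 20, with a pseudocount of 5 and with the replicate block. With no filter 2 receptors passed, notch2 being added. With the block 2 other her and hes genes passed, her2 being added. Over the fits with 1 library left out, counts past the threshold ranged from 438 to 3935 for all genes, 0 to 12 for members, 0 to 14 for other pathway genes, 0 to 6 for clock partners, 0 to 3 for receptors, 0 to 2 for ligands, 0 to 2 for the nuclear genes, 0 to 1 for hey genes, 0 to 2 for clock genes and 0 to 4 for other her and hes genes. Over the fits with 1 library left out, 12 members had both signs, and none of these passed in any setting. Among clock genes and others described in full, the sign turned for her1 (from -0.13 without Cre-injected replicate 2 to 0.10 without Cre-injected replicate 1, and 0.10 without Uninjected replicate 2), her15.2 (-0.066 without Uninjected replicate 1 and 0.62 without Uninjected replicate 2) and hes6 (0.00059 with upper-quartile scaling, 0.024 without Cre-injected replicate 1 and 0.0066 without Uninjected replicate 1). The cause of these changes was not tested. The labels do not say what libraries of the same replicate number share. Differences between replicates 1 and 2 correlated across genes at -0.031 between groups, which cannot show that they share nothing. Mitochondrial genes held 12.6% of the values in Cre-injected replicate 1 and 13.0% in Uninjected replicate 1. In replicate 2 they held 16.9% in the Cre-injected and 17.4% in the Uninjected library. With the block 2253 genes passed, against 2101 without it. Leaving out the jagn and mibp genes kept 4 calls, and summing the her4 rows did too; both were chosen after seeing the data. Scalings moved the median of all genes by at most 0.04 on the log2 scale.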

Other observations

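Several Hairy genes lie next to each other, and neighbours did not always have like values. On chromosome 14, her11 and her5 are 2.04 kb apart on opposite strands. The gene her11 passed the threshold, whereas her5 had a log2 fold change of 0.14 ± 0.21 (SE; adjusted p = 0.697 by limma), and the difference between the neighbours was not tested. On chromosome 5, the oscillator genes her1 and her7 are 12.1 kb apart and together had 423 and 461 normalised reads in Cre-injected embryos, against 433 and 472 in Uninjected embryos. On chromosome 23, her12 and the 5 her4 rows span 26.1 kb and summed to 305 and 299 in Cre-injected embryos, against 395 and 448 in Uninjected embryos. On chromosome 15, her8.2 and her13 summed to 44 and 64 in Cre-injected embryos, against 96 and 107 in Uninjected embryos. On chromosome 11, her2 and the her15 copies span 30.8 kb and summed to 185 and 190 in Cre-injected embryos, against 203 and 298 in Uninjected embryos. In the groups on chromosomes 11, 15 and 23 the summed Cre-injected values lay below the Uninjected ones, on chromosome 5 the groups overlapped, and on chromosome 14 the Cre-injected sums of 273 and 263 lay above the 196 and 192 of Uninjected embryos. These sums are descriptions without a test, and they repeat single genes given above. On chromosome 14 her5 by itself overlapped between groups, and on chromosome 11 both her15 copies did. Groups did not overlap in 56.7% of all tested genes.

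The ubiquitin ligase gene listed in capitals as MIB2, a relative of mib1 that the choice by lower-case symbol leaves out, had 65 and 61 in Cre-injected embryos, against 55 and 40 in Uninjected embryos (adjusted p = 0.364 by limma). The rows that share only letters with the pathway did not pass. For mibp2 the values were 2236 and 2959 in Cre-injected embryos, against 3195 and 3396 in Uninjected embryos (adjusted p = 0.103 by limma). For mibp they were 337 and 292 in Cre-injected embryos, against 454 and 346 in Uninjected embryos (adjusted p = 0.204 by limma). The jagunal genes jagn1b and jagn1a had adjusted p = 0.485 and 0.785 by limma.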
